A study of Mus musculus with 6 samples.

Results

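The BET bromodomain inhibitor JQ1 was set directly against the Smoothened inhibitor GDC-0449 in the mouse medulloblastoma line SmoWT-MB, with the solvent controls left out of the difference. The arrays were chosen by their titles: 2 arrays of JQ1-treated cells and 2 of GDC-0449-treated cells, 4 of the 6 in the series, all after 6 h of treatment. By its labels the line is Ptch-deficient, so every group, the DMSO controls included, shares that defect, and all arrays come from 1 line. The labels give no concentration and do not tell whether a group's arrays were separate cultures, so p-values measure the spread between these arrays, which may be technical. Tests covered the 17026 of 45281 probes whose detection p-value was under 0.01 on 2 or more of the 6 arrays, and the brightest tested probe stood for each of 12052 genes.

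Both compounds act on the hedgehog pathway at different depths. In this pathway the receptor Ptch1 restrains Smoothened, and when Ptch1 is lost Smoothened drives the Gli transcription factors, which raise their own targets, Ptch1 among them. GDC-0449 blocks Smoothened at the membrane. BET proteins bind acetylated histones in the nucleus and help RNA polymerase II into elongation, so JQ1 can act on the transcription of many genes, those of the hedgehog pathway included. In the cerebellum hedgehog signalling keeps granule neuron precursors dividing, and hedgehog-type medulloblastoma is thought to arise from these precursors. A direct comparison asks where the transcript levels left by the compounds differ, whatever the controls show.

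Values are log2 normalized intensities of 1 probe, which can be compared between arrays but not between genes. With JQ1, 15125 and 15345 probes were detected, and with GDC-0449, 16357 and 16154. Log2 values of arrays from different compounds correlated across genes at 0.951 to 0.953 and those of the same compound at 0.996, though genes are not independent replicates. Of 27 markers of astrocytes, oligodendrocytes, microglia, endothelium and fibroblasts, 6 could be tested. Atoh1, which defines granule neuron precursors in the animal, was above background on 0 of 6 arrays, as were Pax6 and Eomes. Barhl1, Zic1, Meis1 and Otx2 were detected on all arrays. A silent probe does not show that its transcript is absent. The probes of the ribosomal protein genes Rpl6, Rpl17, Rps20 and Rps23 were above background on 0 of 6 arrays too. In such bulk RNA, fewer cells of a type and less RNA per cell cannot be told apart.

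The compounds left these cells with widely different transcript levels. With limma, 3196 genes (26.5% of those tested) were higher with JQ1 than with GDC-0449 and 3378 (28.0%) were lower, at a Benjamini-Hochberg adjusted p under 0.05, which is 54.5% in all. Most of these differences were small: 585 genes (4.85%) were higher and 755 (6.26%) lower by 2-fold or more, and 48 and 99 by 4-fold or more. The median absolute log2 difference over all genes was 0.34, against a median standard error (SE) of 0.11. Both JQ1 arrays lay above both GDC-0449 arrays for 38.9% of genes and below them for 39.0%, 78.0% in all.

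Many genes differed little. For 4559 genes (37.8%) the 95% interval of the log2 difference lay within 0.5 of 0, and 223 of these passed the test with a small difference. The DMSO arrays, which took no part in the difference, show where the untreated level stood. Of the 585 genes at least 2-fold higher with JQ1, the DMSO mean was nearer to the GDC-0449 mean for 538, and of the 755 at least 2-fold lower it was nearer for 715. Large differences thus mostly separated JQ1 from both other groups.

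**Figure D1:**
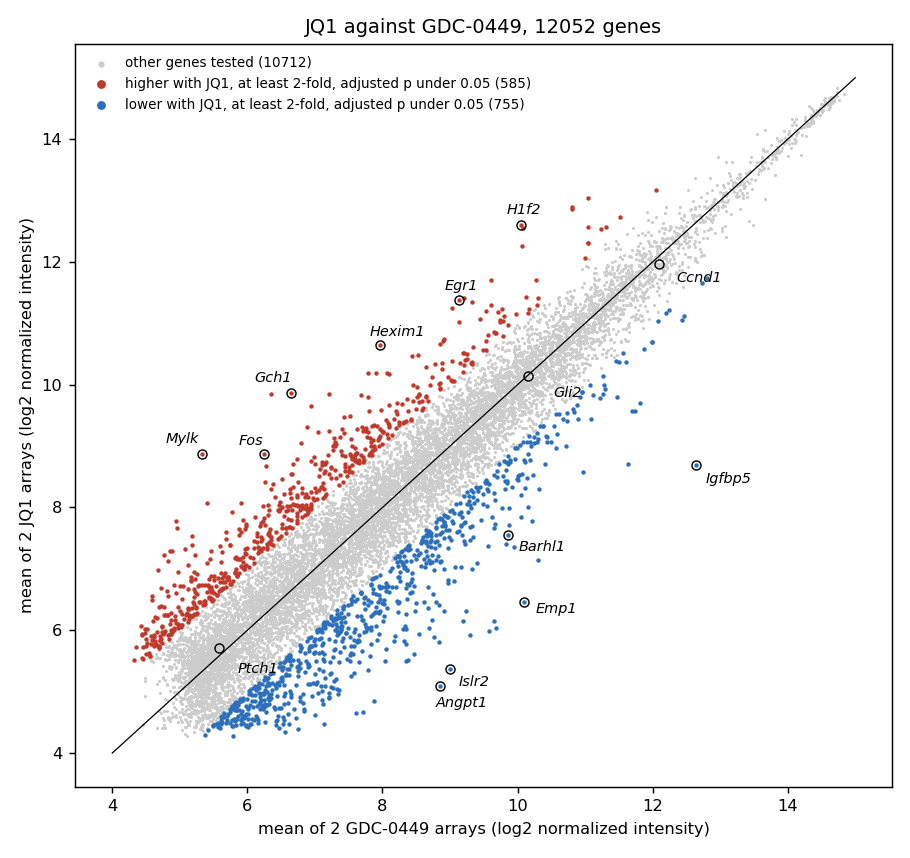
Mean of the 2 JQ1 arrays (vertical axis) against the mean of the 2 GDC-0449 arrays (horizontal axis), both in log2 normalized intensity, for the 12052 genes tested, with the line of equal values. Of these, 585 (red) were at least 2-fold higher and 755 (blue) at least 2-fold lower with JQ1 at an adjusted p under 0.05. Ptch1, Gli2 and Ccnd1 lie near the line, Hexim1 and H1f2 above it and Igfbp5 and Islr2 below it.

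Among hedgehog targets and pathway genes, Ptch1, Gli2 and the D cyclin genes did not pass the test between the compounds, while others, Hhip among them, did. Ptch1, both receptor and target gene of the pathway, gave 5.79 and 5.64 with JQ1 and 5.74 and 5.43 with GDC-0449, against 7.41 and 7.43 with DMSO. The treated arrays overlapped, and all 4 lay below the DMSO arrays. The JQ1 minus GDC-0449 difference was 0.13 on the log2 scale with a 95% interval from -0.15 to 0.41 (limma adjusted p = 0.391). On these 4 arrays the lowest signal that counted as detected was between 5.21 and 5.47, close to the Ptch1 values, so a difference further down would not be seen. The labels do not say which part of Ptch is lost, so this signal does not check that label.

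Gli2, the main activator among the Gli factors, gave 10.10 and 10.19 with JQ1 and 10.18 and 10.12 with GDC-0449, against 10.86 and 11.01 with DMSO. Its JQ1 minus GDC-0449 difference had an interval from -0.23 to 0.22, and another probe gave 0.31. Ccnd1, a G1 cyclin gene, differed by -0.13 (interval -0.36 to 0.10), and Ccnd2, another, by 0.16 (interval -0.07 to 0.39; other probes -0.41 and 0.31). The kinase gene Cdk6 gave -0.23 (interval -0.44 to -0.03, adjusted p = 0.0575) and passed with median scaling (-0.27, adjusted p = 0.0335). None of these passed the test as fitted, which does not show that the compounds act alike on them.

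The negative regulators Hhip and Sufu were higher with JQ1 by small steps. Hhip, which binds and holds back hedgehog ligands, gave 5.93 and 6.08 with JQ1, 5.59 and 5.64 with GDC-0449 and 7.58 and 7.53 with DMSO. It was higher with JQ1 by 0.39 (SE 0.09, adjusted p = 0.00744), a small step beside the distance of both groups from the controls, and without JQ1 replicate 2 the adjusted p was 0.0529. Sufu, which restrains the Gli proteins, was higher by 0.50 (SE 0.15, adjusted p = 0.0221; another probe 1.13), but by 0.33 without JQ1 replicate 2 (adjusted p = 0.137) and by 0.33 without GDC-0449 replicate 1 (adjusted p = 0.14).

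Other members differed in either direction. Sox18, a transcription factor gene, was 2.13-fold higher with JQ1 (adjusted p = 3.71e-05), and the co-receptor gene Cdon was 1.97-fold higher (adjusted p = 0.000247). Sfrp1, which encodes a secreted Wnt antagonist, was higher by 0.33 on the log2 scale (limma adjusted p = 0.0132), and did not pass without JQ1 replicate 2 (0.0574) or GDC-0449 replicate 2 (0.0584). Lower with JQ1 were Stk36, a kinase gene of the hedgehog and cilium pathway (log2 difference -1.10), the Notch and hedgehog effector gene Hey1 (-1.08), and the Polycomb gene Bmi1 (-0.87). The ciliary genes Evc2 (-0.82) and Evc (-0.43), whose products act with Smoothened, were also lower, as were Spop (-0.63), an adaptor for Gli protein degradation, and the mitotic factor gene Foxm1 (-0.55). Gli3 (-0.24, adjusted p = 0.0512), Smo itself (-0.26, adjusted p = 0.0927), Bcl2 (0.39, adjusted p = 0.0521) and Igf2 (-0.04, adjusted p = 0.742) did not pass with limma. Without JQ1 replicate 2 Bcl2 passed (0.61, adjusted p = 0.00736), and without JQ1 replicate 1 Smo did (-0.39, adjusted p = 0.0347). Leaving out arrays aside, the adjusted p passed for Gli3 under 5 alternatives (0.0342 to 0.0458), for Smo under 4 (0.00727 to 0.0455) and for Bcl2 under 6 (0.00165 to 0.0456). Other probes gave 0.62 for Bcl2 and -0.53 and -0.49 for Smo.

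Of 33 hedgehog targets and pathway genes on the array, 22 could be tested, and 6 were higher and 7 lower with JQ1, 59.1% against 54.5% of all genes. Their median log2 difference was -0.08, against 0.01 for all genes tested, and with median scaling 0.10 against 0.09. Gli1 and Mycn, each read by 1 probe, were above background on 0 of 6 arrays and were not tested, which does not show that they were absent.

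**Figure D2:**
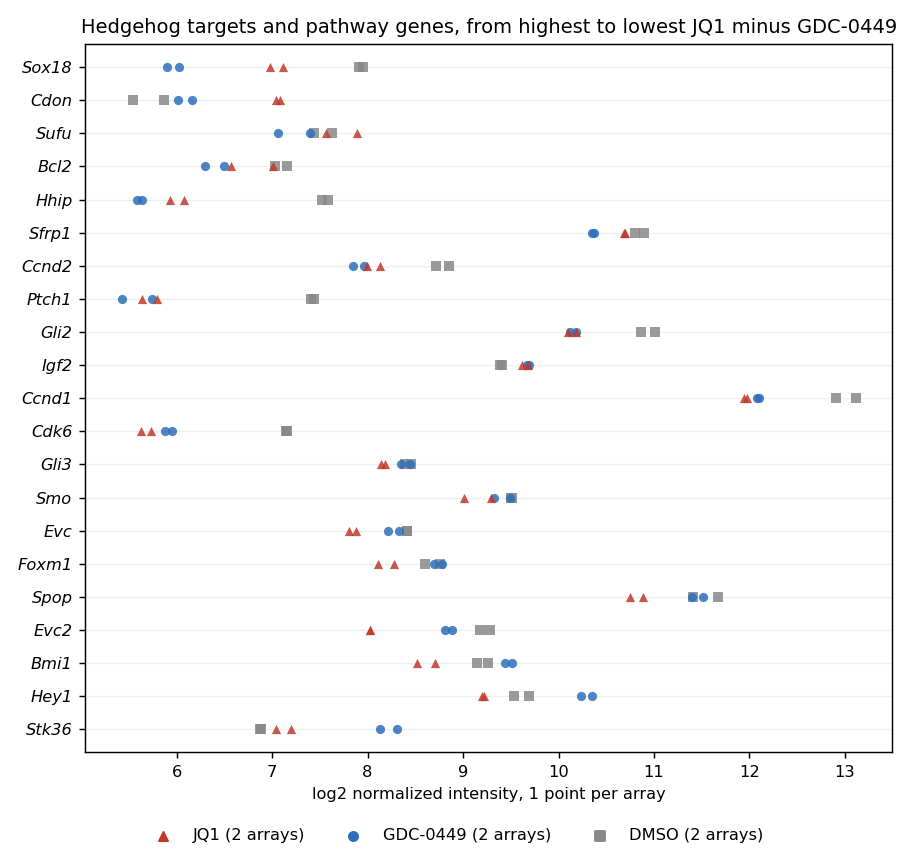
Log2 normalized intensity (horizontal axis) of 21 tested hedgehog genes on each array, from the highest JQ1 minus GDC-0449 difference at the top to the lowest, with JQ1 as triangles, GDC-0449 as circles and DMSO as squares, 1 point per array. Treated points of Ptch1, Gli2, Ccnd1, Ccnd2 and Cdk6 lie together, below the DMSO points. Stk36, Hey1 and Sox18 show wide gaps between the compounds.

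A few other genes stood far from the controls with both compounds and differed little between them. Ung, which removes uracil from DNA, gave 8.92 and 8.95 with JQ1, 8.90 and 8.82 with GDC-0449 and 10.28 and 10.45 with DMSO. Its JQ1 minus GDC-0449 interval ran from -0.15 to 0.30. Prm1, a sperm chromatin protein gene, gave an interval from -0.26 to 0.16 and Tpd52l1 one from -0.28 to 0.29. Fam214b (interval -0.34 to 0.32) and Itih3 (-0.19 to 0.40) were alike in this. These genes were picked for narrow intervals around 0, so the values describe them and test nothing. Tbata, far below the controls with both compounds, was lower still with JQ1, with a mean of 8.64 ± 0.0408 (SD, n = 2) against 8.99 ± 0.0122 (SD, n = 2), and 11.89 with DMSO. The arrays of the compounds did not overlap (log2 difference -0.35, limma adjusted p = 0.0116 across all genes; other probes -0.67 and 0.13). It did not pass without JQ1 replicate 1 (0.0624) or GDC-0449 replicate 1 (0.0512).

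Among named genes, the largest increases with JQ1 relative to GDC-0449 came from genes of several kinds. Clones, predicted transcripts and identifiers without a gene name were passed over, some of which differed as much. Mylk, the myosin light chain kinase gene, gave 8.81 and 8.94 with JQ1 and 5.16 and 5.50 with GDC-0449, where 1 of 2 arrays detected it. It was 11.7-fold higher (SE of the log2 difference 0.15, adjusted p = 1.22e-06), and other probes gave 1.56 and 1.71 on the log2 scale. Gch1, the first enzyme of tetrahydrobiopterin synthesis, was 9.30-fold higher (9.87 and 9.85 against 6.54 and 6.75; adjusted p = 7.12e-07). Both genes stood near their DMSO level with GDC-0449.

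Hexim1 encodes an inhibitor of the elongation factor P-TEFb and is a widely used sign of BET inhibition. It gave 10.64 and 10.66 with JQ1 and 8.05 and 7.88 with GDC-0449. It was 6.42-fold higher with JQ1 (adjusted p = 9.28e-07), and the GDC-0449 arrays lay beside the DMSO arrays at 7.89 and 7.75. Where no GDC-0449 array detected the probe, only a bound can be given. Espn, an actin-bundling protein gene, was at least 5.89-fold higher with JQ1. The growth-arrest gene Gadd45b was at least 5.39-fold higher, though another probe gave a smaller log2 difference of 1.34. Itpka, an inositol phosphate kinase gene, was at least 4.16-fold higher. No DMSO array detected Itpka either, so it entered the test through the JQ1 arrays alone. Ccno, a cyclin-like gene of multiciliated cells, was 6.39-fold higher and the non-coding RNA Dleu2 6.23-fold higher. Fos and the histone genes H2ac18, H1f2 and H2bc4 completed the 12 largest increases among named genes and are described with their groups.

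The largest decreases went further than the largest increases, with 13 genes at least 8-fold lower and 3 at least 8-fold higher, identifiers without a gene name included. Igfbp5, which encodes a binding protein of insulin-like growth factors, gave 8.57 and 8.81 with JQ1 and 12.59 and 12.70 with GDC-0449. The DMSO arrays lay between, at 11.46 and 11.21, so that this gene left the control level in opposite directions. It was 15.5-fold lower with JQ1 (SE 0.12, adjusted p = 7.12e-07), and other probes gave -4.47 and -4.15 on the log2 scale. Angpt1, a vascular growth factor gene, was at least 10.6-fold lower, since neither JQ1 array detected it. Islr2, a neuronal membrane protein gene, gave 5.31 and 5.42 with JQ1, not detected, against 9.09 and 8.90, and was at least 11.7-fold lower.

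Emp1, an epithelial membrane protein gene, was 12.5-fold lower with JQ1 (6.58 and 6.33 against 10.14 and 10.06), and Cavin2, a coat protein gene of caveolae, also 12.5-fold. Tex14, an intercellular bridge gene of germ cells, was 10.3-fold lower, the neuronal kinase gene Aatk 8.98-fold, Thsd4 8.23-fold and Hamp2, a hepcidin gene, 8.19-fold. For genes not detected on the JQ1 arrays the bounds were at least 5.41-fold for Slc30a10, a manganese transporter gene, at least 4.83-fold for Ky, and at least 4.49-fold for Acsl6, a fatty acid ligase gene. Other probes of Slc30a10 (-0.95) and Acsl6 (-1.27 and -0.51) gave smaller log2 differences. In all 12 of these genes except Islr2, the DMSO mean lay between the JQ1 mean and the GDC-0449 mean.

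**Figure D3:**
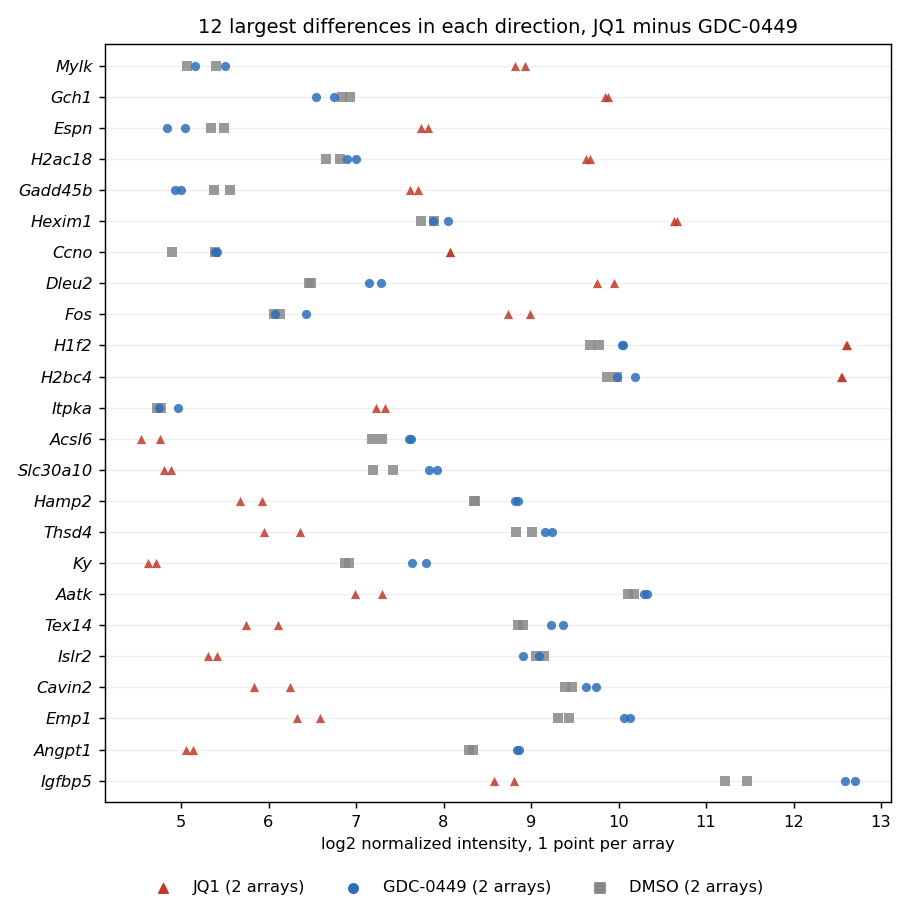
Log2 normalized intensity (horizontal axis) of the 12 named genes furthest above and the 12 furthest below, unnamed identifiers passed over, with JQ1 relative to GDC-0449, 1 point per array, with JQ1 as triangles, GDC-0449 as circles and DMSO as squares. The genes were chosen from those whose JQ1 and GDC-0449 arrays do not overlap. DMSO lies near GDC-0449 for most of the 24 genes. For the 12 lower genes except Islr2 the DMSO mean lies between the compounds, with a wide gap on both sides for Igfbp5.

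Replication-dependent histone genes, which supply the core and linker histones during S phase and whose transcripts normally carry no poly(A) tail, were mostly higher with JQ1. Of 48 tested, 37 were higher with JQ1 and 0 lower, 77.1% against 26.5% of all genes, with a median log2 difference of 1.26. Counts differed by class: all 11 H2B and all 11 H4 genes were higher, with medians of 2.08 and 1.39, and 8 of 9 H3 genes, with a median of 1.18. Of 15 H2A genes 6 were higher, and the class median was 0.09. Several of the 9 H2A genes that did not pass were read by very bright probes, such as H2ac7 at 14.12 on both JQ1 arrays. For H2ac20 the brightest probe gave -0.05 and another 2.14. The part of probe brightness and the difference between classes were not tested, so these counts do not show that H2A genes were spared. Many histone genes are near-copies of each other and a probe may read several, so the genes counted are not independent.

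H1f2, a linker histone gene, gave 12.61 and 12.60 with JQ1, 10.04 and 10.05 with GDC-0449 and 9.67 and 9.77 with DMSO. The groups were far apart (5.90-fold, SE 0.09, adjusted p = 9.24e-07; another probe gave 2.75 on the log2 scale). H2ac18 was 6.51-fold higher, with other probes at 1.00 and 2.35, H2bc4 was 5.51-fold higher, H2bc14 4.60-fold and H2bc9 4.57-fold. In all 5 genes the GDC-0449 mean lay above the DMSO mean, so DMSO had the lowest mean of the 3 groups.

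Promoter sequences of members that differed together are shown for H1f2 and H2ac18, with Fos, the immediate early gene with the largest difference, and Ptch1, which differed little. They are the 250 bases before the start of each gene, 5′ to 3′ on the gene's strand, from RefSeq with build GRCm38.p6. Capitals mark the TATA box (TATAAA), the CCAAT box (CCAAT) and the Gli site (GACCACCCA), each searched on both strands; the matches shown do not overlap.
H1f2 (chr13:23738557-23738806, plus strand): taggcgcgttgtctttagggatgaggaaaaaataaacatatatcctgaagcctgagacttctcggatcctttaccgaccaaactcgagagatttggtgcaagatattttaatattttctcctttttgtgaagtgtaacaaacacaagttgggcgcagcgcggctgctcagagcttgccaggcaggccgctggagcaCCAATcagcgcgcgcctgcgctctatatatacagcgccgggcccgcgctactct
H2ac18 (chr3:96245247-96245496, plus strand): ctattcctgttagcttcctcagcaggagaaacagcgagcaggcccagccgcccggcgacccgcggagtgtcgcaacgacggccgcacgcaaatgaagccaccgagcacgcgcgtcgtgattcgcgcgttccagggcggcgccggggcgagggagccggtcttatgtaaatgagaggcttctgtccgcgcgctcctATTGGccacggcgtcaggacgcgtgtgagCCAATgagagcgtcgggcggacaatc
Fos (chr12:85473640-85473889, plus strand): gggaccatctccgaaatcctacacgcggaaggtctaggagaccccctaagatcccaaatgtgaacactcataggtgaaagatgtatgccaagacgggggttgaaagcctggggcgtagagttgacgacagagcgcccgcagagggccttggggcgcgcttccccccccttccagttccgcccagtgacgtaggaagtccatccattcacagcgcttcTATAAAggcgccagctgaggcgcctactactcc
Ptch1 (chr13:63565736-63565985, minus strand): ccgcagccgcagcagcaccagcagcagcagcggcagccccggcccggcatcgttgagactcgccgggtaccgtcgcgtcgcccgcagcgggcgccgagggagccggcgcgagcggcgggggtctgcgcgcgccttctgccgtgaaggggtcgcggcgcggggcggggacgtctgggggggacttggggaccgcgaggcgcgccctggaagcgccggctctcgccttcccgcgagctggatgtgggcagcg
H1f2 holds 1 CCAAT box, H2ac18 holds 2 and Fos 1 TATA box, while none of the 3 motifs matched for Ptch1, which says only that these letters are not in this window. Of the 48 tested histone genes 43 had an entry, with 44 promoters, of which 81.8% held a CCAAT box and 43.2% a TATA box in these 250 bases. Over all 32851 promoters of the table the shares were 33.8% and 12.4%, and 0.225% held the Gli letters. For the 7528 of 12052 tested genes with an entry, the shares were 36% and 6.25% of 9666 promoters. A match describes the sequence only.

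Immediate early genes, which growth factor signalling switches on within minutes, were higher with JQ1 almost throughout. Of 28 on the array 14 could be tested, and of these 13 were higher (92.9% against 26.5% of all genes) and 0 lower. Their median log2 difference was 0.58 (0.38 with no filter on dim probes). Fos, a subunit of the AP-1 factor, gave 8.74 and 8.99 with JQ1 and 6.42 and 6.08 with GDC-0449, which was beside the DMSO arrays at 6.06 and 6.13. It was 6.13-fold higher with JQ1 (adjusted p = 3.07e-06), the zinc finger factor gene Egr1 4.71-fold (adjusted p = 1.03e-06), and Atf3 at least 1.79-fold, since no GDC-0449 array detected it. No DMSO array detected Atf3 either, so it entered the test through the JQ1 arrays alone and the filter largely set its direction. Zfp36, chosen after its values were seen as the 1 member that did not pass, had an interval from -0.15 to 0.33 on the log2 scale.

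For Fosl2, another AP-1 subunit, the order was different. It gave 8.21 and 8.12 with JQ1, 6.49 and 6.33 with GDC-0449 and 7.90 and 7.88 with DMSO. Here the controls lay near JQ1, and the GDC-0449 arrays stood apart (3.38-fold higher with JQ1, adjusted p = 3.84e-06).

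Feedback genes of the ERK kinases lay higher with JQ1 as well, 6 of 8 tested (75% against 26.5% of all genes), with 0 lower. Their median was 0.68, and 0.25 with no filter on dim probes. Phlda1 was 3.26-fold higher (adjusted p = 2.96e-06), the ETS factor gene Etv5 2.16-fold, the ERK phosphatase gene Dusp6 2.04-fold and its relative Dusp4 1.79-fold. For Etv5, JQ1 gave 8.59 and 8.63, DMSO 7.82 and 7.88, and GDC-0449 7.63 and 7.37. Dusp6 showed the same order, with 10.53 and 10.60, then 9.95 and 9.91, then 9.58 and 9.49.

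Targets of p53, the DNA damage-responsive factor, were split. Of 18 tested, 10 were higher (55.6% against 26.5% of all genes) and 3 lower (16.7% against 28.0%), with a median of 0.39 that was 0.19 with no filter on dim probes. Cdkn1a, which encodes the cell cycle inhibitor p21, gave 9.61 and 9.53 with JQ1 and 8.24 and 8.17 with GDC-0449, with DMSO between at 8.79 and 8.67. It was 2.57-fold higher with JQ1 (adjusted p = 1.03e-05; other probes 1.23 and 1.38 on the log2 scale). Gadd45a, a growth-arrest gene, was 3.14-fold higher, the ribonucleotide reductase gene Rrm2b 2.56-fold and the kinase gene Plk3 2.24-fold. The 3 lower members, chosen after their values were seen, were Zmat3 (-0.39), the pro-apoptotic gene Bbc3 (-0.36; another probe 0.07) and Mdm2 (-0.28, adjusted p = 0.0475), which encodes the main antagonist of p53. Mdm2 did not pass without any 1 of the 4 treated arrays (adjusted p from 0.0923 to 0.175), with a replicate block (0.0604) or with median scaling (-0.07); Bbc3 did not pass without JQ1 replicate 2 (0.0708), nor Zmat3 without GDC-0449 replicate 1 (0.0571), all with limma.

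Among 7 tested cyclin-dependent kinase inhibitor genes, Cdkn1a and Cdkn2d (0.67) were higher with JQ1. Cdkn2c (-0.57) and Cdkn1c (-0.42) were lower, as was Cdkn3 (-0.36), a phosphatase gene taken after its values were seen. With median scaling Cdkn1c (-0.24, adjusted p = 0.0561) and Cdkn3 (-0.21, adjusted p = 0.0748) did not pass. Cdkn1b did not pass, with an interval from -0.25 to 0.15.

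Genes of BET proteins and transcription elongation did not move as 1 group: of 25 tested, 6 were higher and 6 lower, 24% each way against 26.5% and 28.0% of all genes, with a median of 0.11 (0.25 with median scaling). Besides Hexim1, the kinase gene Cdk13 was higher by 0.81 on the log2 scale (adjusted p = 0.000205) and Brd2 by 0.43 (adjusted p = 0.0212; other probes 0.19, 0.57 and 0.79). Brd2 did not pass without JQ1 replicate 1 (adjusted p = 0.123), GDC-0449 replicate 1 (0.0553) or GDC-0449 replicate 2 (0.0792). Brd3, another BET gene, did not pass (interval -0.16 to 0.27), though with median scaling it did (0.30). Hexim2, the relative of Hexim1, went the opposite way: 5.71 and 5.77 with JQ1 against 6.89 and 7.03 (2.33-fold lower, adjusted p = 1.74e-05). Nelfcd, a subunit of NELF, the complex that holds polymerase II near the start site, was 2.52-fold lower, and the 3 other subunits, taken after their values were seen, were Nelfb (-0.55), Nelfa (-0.44) and Nelfe (-0.39), all past the test, Nelfe not with median scaling (-0.19, adjusted p = 0.108).

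Stress genes differed in both directions. Of 33 tested genes of the unfolded protein and integrated stress responses 18 were higher (54.5% against 26.5% of all genes) and 7 lower (21.2% against 28.0%), with a median of 0.56, which was 0.32 without background correction and 0.36 with an offset of 50. Ddit3, the stress-induced factor CHOP, gave 12.56 and 12.59 with JQ1 and 11.01 and 11.06 with GDC-0449, with DMSO between at 11.37 and 11.18 (2.90-fold higher, adjusted p = 6.93e-06). Ppp1r15b, which helps to undo the translational block, was 2.42-fold higher and Herpud1, a gene for degradation of misfolded proteins, 1.84-fold. Nupr1, a stress-inducible nuclear protein gene, was 2.55-fold lower (7.44 and 7.28 with JQ1 against 8.69 and 8.73).

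Of 19 cytosolic heat shock genes 8 were higher (42.1%) and 2 lower (10.5%), against 26.5% and 28.0% of all genes, with a median of 0.15. It was 0.35 with median scaling and 0.28 without GDC-0449 replicate 2. Hspa1a, the inducible HSP70 gene, was at least 1.42-fold higher with JQ1, Hsf2, a heat shock factor gene, 1.87-fold and the co-chaperone gene Dnajb1 by 0.52 on the log2 scale. Only the JQ1 arrays detected Hspa1a, so the filter largely set its direction. The small heat shock gene Hspb8 was 2.16-fold lower, and the other lower member, Bag3 (-0.40), encodes its partner and was named after its value was seen.

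**Figure D4:**
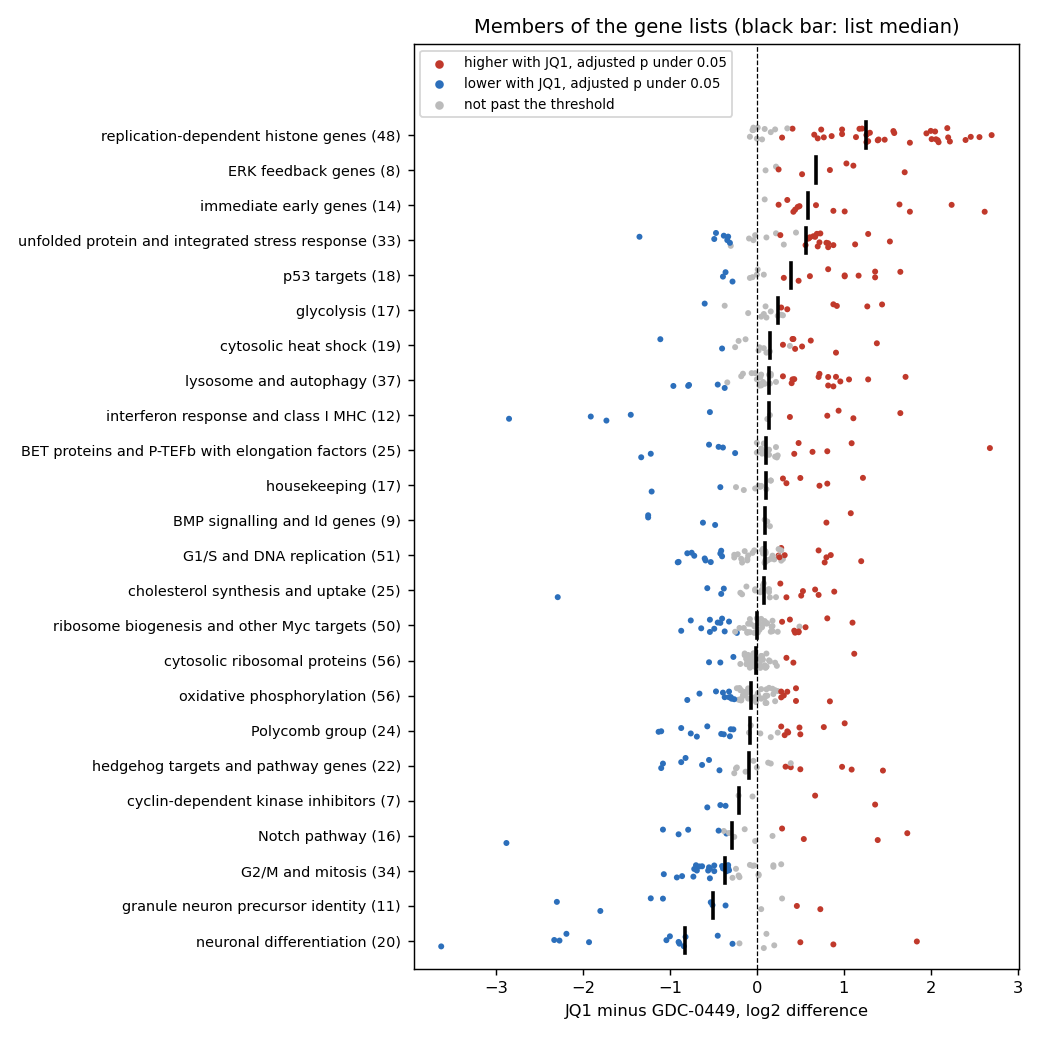
JQ1 minus GDC-0449 log2 difference (horizontal axis) of the tested members of each gene list with at least 5 of them (number in brackets), 1 point per gene, with the list median as a black bar and the median of all genes as a dashed line. Red and blue points passed an adjusted p of 0.05. With this processing histone genes have a median of 1.26 and neuronal differentiation genes one of -0.83 (-0.12 with no filter on dim probes), while ribosomal protein genes crowd around 0.

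Of genes of the granule neuron lineage, more were lower than higher with JQ1. Of 22 identity genes on the array 11 could be tested, and 7 were lower, 63.6% against 28.0% of all genes, and 2 higher. Their median was -0.51, but -0.05 with no filter on dim probes, -0.27 with the mean of a gene's probes and -0.33 with median scaling. Barhl1, a homeobox factor of granule neurons, gave 7.54 and 7.57 with JQ1, 9.87 and 9.84 with GDC-0449 and 8.30 and 8.36 with DMSO. The 3 groups were fully separate, with the controls between the compounds (4.92-fold lower with JQ1, SE 0.09, adjusted p = 9.28e-07). Mfap4, an extracellular matrix gene, was at least 2.79-fold lower, the zinc finger factor gene Zic4 2.33-fold and the homeobox gene Meis1 2.12-fold. Each had the DMSO mean between. On the log2 scale other probes gave -1.37, -1.34 and -0.66 for Zic4, and -1.03 and -0.44 for Meis1. The 2 higher members, named after their values were seen, were Sox11 (0.73; another probe 1.19) and Zic2 (0.46). Zic2 did not pass without JQ1 replicate 1 (adjusted p = 0.0535), JQ1 replicate 2 (0.147) or GDC-0449 replicate 2 (0.201).

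Tested genes of neuronal differentiation were also mostly lower. Of 30 on the array 20 could be tested, not among them Tubb3, Mapt, Stmn2 and Snap25, which no array detected. Of the 20, 13 were lower (65% against 28.0% of all genes) and 3 higher. The median was -0.83, but -0.12 with no filter on dim probes and -0.55 without background correction. Dcx, a microtubule protein gene of migrating neurons, gave 7.52 and 7.23 with JQ1, 9.62 and 9.51 with GDC-0449 and 8.93 and 9.02 with DMSO, and was 4.56-fold lower (limma adjusted p = 3.2e-06; another probe -2.01). The adhesion gene Cntn2 was 3.82-fold lower. In both genes the DMSO level lay between the compounds, while for Islr2 it lay beside GDC-0449. The 3 higher members, named after their values were seen, were the intermediate filament gene Ina (1.84), the semaphorin receptor gene Plxna2 (0.88) and Tiam1 (0.50).

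**Figure D5:**
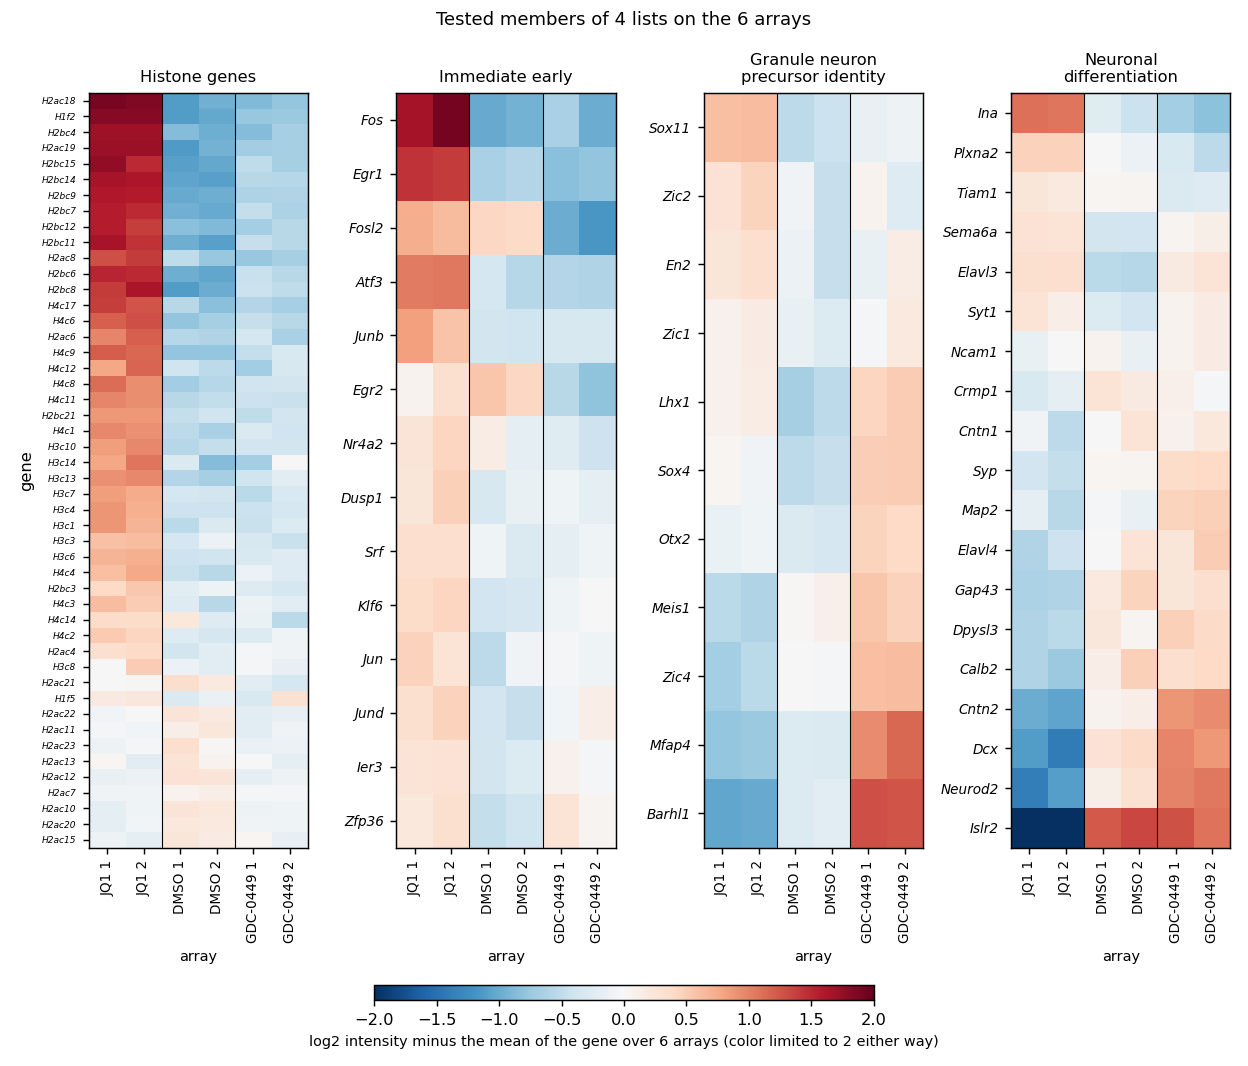
Log2 normalized intensity of tested members of 4 lists on each array, minus the gene's own mean over the 6 arrays, as color from -2 to 2, with genes in rows ordered by JQ1 minus GDC-0449 and arrays in columns. The 2 JQ1 columns are red for most histone and immediate early genes, and the 2 GDC-0449 columns are red for Barhl1, Mfap4, Zic4, Cntn2 and Dcx.

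Notch pathway genes, which govern the choice between precursor and neuron, went both ways. Of 16 tested, 4 were higher and 6 lower, 25% and 37.5% against 26.5% and 28.0% of all genes. The median of -0.29 was -0.03 with no filter on dim probes, -0.11 without JQ1 replicate 1 and -0.14 without GDC-0449 replicate 2. Mfng, which modifies Notch receptors, gave 5.96 and 5.81 with JQ1 and 8.72 and 8.80 with GDC-0449 (7.36-fold lower; another probe -1.77), and Hey1, a Notch effector gene, was 2.12-fold lower. Nrarp, a feedback inhibitor of the pathway, was at least 2.52-fold higher and the receptor gene Notch4 2.62-fold. Only the JQ1 arrays detected Nrarp, so the filter largely set its direction. The other 2 higher members, named after their values were seen, were Notch1 (0.54) and Hes1 (0.29). Hes1 did not pass without JQ1 replicate 1 (adjusted p = 0.138), JQ1 replicate 2 (0.0563) or GDC-0449 replicate 1 (0.147).

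In BMP signalling the inhibitors of differentiation diverged: Id2 was 2.38-fold lower with JQ1 (7.25 and 7.18 against 8.43 and 8.51), and Id1 2.12-fold higher (6.17 and 6.31 against 5.34 and 4.97, detected on 1 of 2 GDC-0449 arrays). Chrd, which encodes the secreted BMP antagonist chordin, was 2.37-fold lower and the receptor gene Bmpr1b at least 1.22-fold. Of the 9 tested, 2 were higher and 4 lower, 66.7% in all against 54.5% of all genes; the remaining calls, seen after the fact, were Msx1 (0.80) and the receptor gene Bmpr1a (-0.48). Another probe of Bmpr1b gave -1.29, and another of Bmpr1a 0.18. Bmpr1a did not pass with the mean of its probes (-0.15, limma adjusted p = 0.157). It did not pass with the authors' processed values either (-0.02, limma adjusted p = 0.879). With the 4 treated arrays alone it turned to 0.18 (limma adjusted p = 0.284).

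Mitotic genes were lower with JQ1 and replication genes were mixed. Of 34 tested genes of G2/M and mitosis 22 were lower and 0 higher, 64.7% against 28.0% of all genes, with a median of -0.37. The separase gene Espl1 gave 7.80 and 8.13 with JQ1 against 9.12 and 8.94 (2.10-fold lower, adjusted p = 0.000164). Bub1b, a spindle checkpoint gene, was lower with a log2 difference of -0.92, the topoisomerase gene Top2a 1.81-fold (other probes -0.22 and -0.03) and Cdca8, a chromosomal passenger gene, 1.55-fold.

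Of 51 G1/S and replication genes 9 were higher and 11 lower, 39.2% in all against 54.5% of all genes, with a median of 0.09. Orc1, a subunit of the origin recognition complex, was at least 1.66-fold higher with JQ1 and Pole2, a polymerase subunit gene, 1.74-fold. Tk1, thymidine kinase, was 1.87-fold lower and E2f2 1.74-fold. For 27 of the 51 the interval lay within 0.5 of 0.

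Of the gene lists with at least 5 tested members, that of cytosolic ribosomal proteins had the smallest share past the test with this processing. Of 56 tested genes of cytosolic ribosomal proteins 3 were higher and 3 lower, 10.7% against 54.5% of all genes, and for 49 the interval lay within 0.5 of 0. The exceptions reached 1.12 for Rps18 and -0.55 for Rpl22. Rpl7a (0.42) and Rpl13a (-0.42) passed too, as did Rplp0 (0.34) and Rpl27 (-0.27), named after their values were seen. Without 1 of the treated arrays Rpl27 (adjusted p from 0.0631 to 0.205) did not pass, nor Rplp0 without JQ1 replicate 1 (0.0852), JQ1 replicate 2 (0.0542) or GDC-0449 replicate 1 (0.132), nor Rpl13a without JQ1 replicate 2 (0.0822) or GDC-0449 replicate 1 (0.0791). With median scaling in place of quantile normalization the median of this list was 0.31 instead of -0.01, while that of all genes was 0.09; Rpl27 then turned to 0.11 and Rpl13a (-0.24, adjusted p = 0.0947) did not pass. The position of these bright probes relative to 0 thus depends on the scaling.

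Genes of ribosome biogenesis and other Myc targets had a median of 0.01, with 9 of 50 higher and 12 lower, 42% in all against 54.5% of all genes. Within 1 complex they diverged: Bop1 was 2.14-fold higher with JQ1 (9.31 and 9.36 against 8.13 and 8.34), and Pes1, which works with Bop1 in large-subunit assembly, was 1.83-fold lower (8.18 and 8.25 against 9.07 and 9.10). Rrn3, which brings RNA polymerase I to its promoters, was 1.76-fold higher and the nucleolar gene Ppan 1.45-fold lower. Of 56 genes of oxidative phosphorylation 7 were higher and 10 lower, 30.4% in all (median -0.07, and 0.19 with median scaling), among them the complex I genes Ndufa9 (-0.80), Ndufs8 (-0.66), Ndufb3 (-0.47) and Ndufb10 (0.84).

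Metabolic and organelle lists differed in both directions. In glycolysis 6 of 17 tested genes were higher and 1 lower, 41.2% in all against 54.5% of all genes. The median was 0.24, and 0.13 without GDC-0449 replicate 1. With JQ1 the platelet phosphofructokinase gene Pfkp was 2.70-fold higher (another probe 0.70 on the log2 scale). The pyruvate dehydrogenase kinase gene Pdk1 was 2.41-fold higher and the glucose transporter gene Slc2a1 1.84-fold. The liver phosphofructokinase gene Pfkl was 1.89-fold higher (another probe 0.00 on the log2 scale). The 1 lower gene, named after its value was seen, was the muscle phosphofructokinase gene Pfkm (-0.60). Of 25 genes of cholesterol synthesis and uptake 7 were higher and 4 lower, 44% in all (median 0.08). Tm7sf2 and Acat2, genes of sterol synthesis, were 1.85-fold and 1.63-fold higher with JQ1.

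Among 37 lysosome and autophagy genes 14 were higher and 5 lower, 51.4% in all against 54.5% of all genes (median 0.14). Ulk2, a kinase gene that starts autophagy, was 3.27-fold higher with JQ1 (another probe 0.95 on the log2 scale), the beta-galactosidase gene Glb1 2.43-fold and the cholesterol exporter gene Npc1 1.94-fold, while Hexa, a hexosaminidase subunit gene, was 1.95-fold lower. Of 24 Polycomb genes 8 were higher and 11 lower, 79.2% in all (median -0.08). Rybp, a subunit of repressive complex 1, was 2.01-fold higher. Pcgf1, of the same family as Bmi1, was 2.15-fold lower, and Phf19, an accessory factor of repressive complex 2, at least 1.12-fold.

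Genes of class I antigen presentation and the interferon response differed in both directions. Of 33 on the array 12 could be tested. Of these, 5 were higher and 5 lower with JQ1, 41.7% each way against 26.5% and 28.0% of all genes (median 0.13). H2-D1, a class I heavy chain gene, gave 9.32 and 9.23 with JQ1 and 7.66 and 7.60 with GDC-0449 (3.14-fold higher; another probe 2.03), and B2m, the class I light chain gene, was 1.75-fold higher. Samd9l was 7.22-fold lower (5.49 and 5.51 against 8.46 and 8.25), and Gbp2 and Rsad2, both antiviral genes, were at least 2.00-fold and at least 2.29-fold lower. Other calls, named after their values were seen, were Stat2 (1.11), H2-K1 (at least 1.67-fold higher), Irf9 (0.38) and Ifit2 (at least 1.41-fold lower). Without GDC-0449 replicate 2, Irf9 did not pass (limma adjusted p = 0.0854).

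Of the markers of other cell types, 4 of the 6 tested were lower with JQ1, against 28.0% of all genes. Mbp, a myelin protein gene, was 3.79-fold lower (another probe -0.23), Pdgfra, a receptor gene of fibroblasts and oligodendrocyte precursors, at least 1.77-fold, and Slc1a3, a glial glutamate transporter gene also used by other neural cells, 1.66-fold. Kdr, an endothelial receptor gene (0.30), and Csf1r, a microglial one (0.21), did not pass, though Kdr did without GDC-0449 replicate 1 (0.54, limma adjusted p = 0.0245). The defining markers Olig1, Olig2, Sox10, Gfap and Aqp4 were above background on 0 of 6 arrays, which does not show that they were absent. The summed linear intensity of the 6 oligodendrocyte markers ran from 199 to 206 on the JQ1 arrays and from 451 to 457 on the GDC-0449 arrays, and that of the 5 astrocyte markers from 1136 to 1220 and from 1880 to 1883. For the 6 fibroblast markers the sums ran from 125 to 129 and from 181 to 189. For the 5 microglia markers they ran from 132 to 145 and from 133 to 138, and for the 5 endothelial markers from 144 to 151 and from 134 to 140. Their part in the differences above was not tested. Housekeeping genes, often taken as stable, had a median of 0.11. Of 17 tested, 6 were higher and 2 lower, 47.1% in all against 54.5% of all genes. Those that passed included the polymerase II gene Polr2a (2.32-fold higher), B2m, Tfrc (1.64-fold higher), Gusb (2.32-fold lower) and Rpl13a.

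Detection itself differed. Of 45281 probes, 295 were above background on both JQ1 arrays but no GDC-0449 array, and 974 on both GDC-0449 arrays but no JQ1 array. The lowest signal that counted as detected was higher on the JQ1 arrays (5.47 and 5.42) than on the GDC-0449 arrays (5.21 and 5.25). Its part in these counts was not tested. Among genes that differed 2-fold or more and had several tested probes, all probes had the sign of the brightest one in 366 of 376.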

How the data were processed

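Transcripts of SmoWT-MB cells treated for 6 h were measured on Illumina mouse bead arrays, 2 for each of 3 groups. Per the file headers, each probe has a linear intensity, averaged over beads, and a detection p-value against control beads. The submitters' processing notes name GenomeStudio 1.9.0. Other steps are not given in the sources used here. A table of the authors' processed intensities, background-subtracted and quantile normalized by its values, served as an alternative.

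Intensities were background-corrected with an offset of 16, quantile normalized (neqc of limma 3.58.1, R 4.3.3) and put on the log2 scale. The offset pulls differences of dim probes towards 0, and quantile normalization makes all differences relative to other genes. Gene symbols follow RefSeq (GRCm38.p6): they were current for 27740 probes, replaced for 6111 and left as deposited for 11430.

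All 6 arrays were fitted with limma (lmFit, eBayes; 3 residual degrees of freedom and 5.38 from the prior), so DMSO arrays added to the estimate of the spread only. Tests were two-sided, adjusted by Benjamini-Hochberg over all 12052 genes, with a threshold of 0.05. SE and 95% intervals come from this model. A probe detected on no array of 1 group has only a bound, "at least", with lower values raised to the lowest detected signal of their array. A gene detected with 1 compound only, and not with DMSO, passed the filter through that compound alone, and list counts include such genes. The model was tested on simulated data. The number of arrays limits the precision.

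Same-numbered arrays had deviations correlated at 0.08 between JQ1 and GDC-0449, and nothing in the labels says that numbers mark a shared day. Named genes were the 12 largest differences each way among those with separate arrays (clones, predicted transcripts and identifiers without a gene name passed over), a fixed set, up to 4 members of each list by smallest p, tested hedgehog genes, and 6 genes far from DMSO with narrow intervals around 0, of which Rpp25 was not detected with either compound. Members, lists and rule were chosen with earlier results of these data known. A few genes that the rule names are not reported here.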

Additional observations from a re-analysis of the deposited data

How the results depend on the processing

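Under all alternatives tried, 2628 to 3985 genes were higher with JQ1 and 2832 to 3529 lower, against 3196 and 3378. Median scaling gave 3985 and 2991, 57.1% of calls higher against 48.6%. Leaving out 1 array gave 2628 to 3159 higher and 2832 to 3334 lower; a lone array of a group was then assumed to vary like the others. With a replicate block the counts were 3208 and 3358, and among named genes only the call of Mdm2 was lost; the labels do not say that the numbers pair arrays. Genes past 2-fold fell from 585 higher and 755 lower to 267 and 385 without background correction and to 309 and 431 with an offset of 50, which compresses differences by construction.

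Of 168 named genes, 133 kept direction and call under all alternatives. Reversed values were 0.15 for Ccnd1, 0.15 for Gli2, 0.11 for Igf2, 0.11 for Rpl27 and -0.03 for Tpd52l1 with median scaling, 0.15 for Gli2, 0.05 for Prm1 and -0.02 for Ung with the mean of a gene's probes, 0.00 for Fam214b with the authors' processed values, and 0.18 for Bmpr1a with the 4 treated arrays alone. Bmpr1a and Rpl27 had passed the test, and the others had not. Leaving out 1 array, Brd3 ran from -0.02 to 0.13, Fam214b from -0.08 to 0.06, Gli2 from -0.05 to 0.04, Itih3 from -0.04 to 0.25, Prm1 from -0.12 to 0.02, Ptch1 from -0.03 to 0.29, Tpd52l1 from -0.16 to 0.17, Zfp36 from -0.02 to 0.20 and Zic1 from -0.07 to 0.16. The cause was not tested. Signal over background limits Ptch1 and other dim probes.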
